A study of Mus musculus with 14 samples.

Results

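The killer cell lectin-like receptor genes and *Ncr1* were followed tumor by tumor in mammary tumors of mice that received nicotinamide (NAM) or were left untreated. The 10 genes were taken from the deposited table of 56414 genes by their symbols, namely *Klrb1c*, *Klrb1b*, *Klrd1*, *Klrk1*, *Klrc1*, *Klrc2*, *Klre1*, *Klri2*, *Klrg1* and *Ncr1*, and each matched a single row. On mm10, 9 of them lie on chromosome 6 and *Ncr1* (GSMG0033949) spans bases 4337723 to 4345169 of chromosome 7. The lectin-like genes form the NK gene complex, apart from *Klrg1* (GSMG0033639), which lies at lower coordinates, at bases 122270609 to 122282833. Within the complex, *Klrb1c* (GSMG0033732) spans bases 128778487 to 128788644, *Klrb1b* (GSMG0033733) spans 128813706 to 128826333 and *Klre1* (GSMG0032536) spans 129577467 to 129585827. *Klrd1* (GSMG0032537) follows at 129591782 to 129598775, *Klrc2* (GSMG0033752) at 129647496 to 129660689, *Klrc1* (GSMG0033753) at 129666019 to 129678973 and *Klri2* (GSMG0033755) at 129729041 to 129740486. The row of *Klrk1* (GSMG0033746) is annotated from 129594491 to 130061533, a span of 467043 bases against 13542 in GENCODE. It overlaps 13 other genes, among them *Klrd1*, *Klrc1*, *Klrc2* and *Klri2*. How reads shared by overlapping or similar genes were counted is not given in the sources used here. The values of *Klrk1* and of the genes it overlaps, and the split between *Klrc1* and *Klrc2*, are uncertain to that extent.

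Tumors were obtained from C57Bl/6 mice in a pair of models, with 1 library per tumor and polyA RNA sequenced in paired-end mode. M/D-driven tumors arose in females that received, at 6 to 9 weeks of age, a 50 mg medroxyprogesterone acetate pellet releasing over 90 days and then 6 gavages of 200 µL of 7,12-dimethylbenz[a]anthracene at 5 mg/mL, whereas AT3 tumors grew from 1000000 AT3 cells, a mammary carcinoma cell line, injected under the skin. Mice were randomized when tumors reached 0.25 cm2, and the NAM groups drank water with 0.5% NAM for 10 days while the untreated groups received no agent. The M/D model had 4 untreated tumors and 4 with NAM, and the AT3 model 3 and 3, with 50391585 to 84178009 reads per M/D-driven tumor and 40936868 to 75527467 per AT3 tumor. The 10 genes took few of these reads. The lowest count in any tumor was 5 reads (*Klrc2*) and the highest was 1998 reads (*Klrb1c*), and 6 genes had a median under 100 reads per tumor.

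NK cells read the surface of other cells through opposing receptors. CD94, the product of *Klrd1*, pairs with the inhibitory chain NKG2A (*Klrc1*) or the activating chain NKG2C (*Klrc2*) and binds Qa-1, encoded by *H2-T23*. NKG2D (*Klrk1*) is an activating receptor for stress-induced ligands of the RAE-1, H60 and MULT1 families and signals through the adaptors encoded by *Hcst* and *Tyrobp*. *Klrb1c* encodes the activating receptor NKR-P1C, by which NK cells of C57BL/6 mice are commonly identified, and *Klrb1b* encodes the inhibitory receptor NKR-P1B, which binds the product of *Clec2d*. KLRE1 pairs with KLRI2 (*Klri2*) into an activating receptor, KLRG1 inhibits cells upon binding cadherins, and NKp46 (*Ncr1*) is an activating receptor of the immunoglobulin family found on NK cells and on some innate lymphoid cells. Several of these receptors, NKG2D and CD94 with NKG2A among them, are also carried by activated CD8+ T cells.

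RefSeq promoter windows (GRCm38.p6, 250 bases before to 50 bases after the start of the gene, on the strand of the gene) were matched by symbol for 7 of the 10 genes. These windows were searched on both strands for TGTGGT, the core letters bound by RUNX factors, and for GTGTGA, the core letters of a T-box half-site, since RUNX3 and the T-box factors T-BET and EOMES act in NK cells. The RUNX letters were present in at least 1 window of 6 of the 7 genes (*Klrb1c*, *Klrk1*, *Klrc1*, *Klrc2*, *Klre1* and *Ncr1*), against 18.9% of 27025 genes with a window. The T-box letters were present in 2 of the 7 (*Klre1* and *Ncr1*), against 16.4% of genes. The windows shown are those of *Klrb1c* and its neighbor *Klrb1b*, which differed widely in NAM-treated M/D-driven tumor 1, of *Klrc2*, the receptor gene whose groups did not overlap in M/D-driven tumors, and of *Ncr1*. Capitals mark either motif on either strand, and no match of the RUNX letters overlapped a match of the T-box letters. The first base of the match lies 89 bases before the start in *Klrb1c*, 36 and 9 bases before it in *Klrc2*, and 176, 80 and 41 bases before it in *Ncr1*, where the match at 80 is the T-box half-site. A second annotated start of *Klrc2* puts its matches 76 and 49 bases before the start. For *Ncr1*, a second start puts them 185, 89 and 50 bases before it. No match was found in the window of *Klrb1b*.
*Klrb1c* (chr6:128788592-128788891, minus strand): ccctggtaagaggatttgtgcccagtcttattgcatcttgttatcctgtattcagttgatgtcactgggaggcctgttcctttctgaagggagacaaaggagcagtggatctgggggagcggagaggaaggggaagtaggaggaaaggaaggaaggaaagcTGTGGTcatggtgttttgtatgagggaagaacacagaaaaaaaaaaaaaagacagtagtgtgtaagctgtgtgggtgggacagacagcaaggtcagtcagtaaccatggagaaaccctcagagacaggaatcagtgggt
*Klrb1b* (chr6:128826266-128826565, minus strand): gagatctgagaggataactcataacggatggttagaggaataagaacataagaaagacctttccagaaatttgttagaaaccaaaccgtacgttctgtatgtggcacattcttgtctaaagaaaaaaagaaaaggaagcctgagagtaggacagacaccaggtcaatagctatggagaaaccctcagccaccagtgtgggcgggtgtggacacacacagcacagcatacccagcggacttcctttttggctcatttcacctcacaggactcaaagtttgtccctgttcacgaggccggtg
*Klrc2* (chr6:129660547-129660846, minus strand): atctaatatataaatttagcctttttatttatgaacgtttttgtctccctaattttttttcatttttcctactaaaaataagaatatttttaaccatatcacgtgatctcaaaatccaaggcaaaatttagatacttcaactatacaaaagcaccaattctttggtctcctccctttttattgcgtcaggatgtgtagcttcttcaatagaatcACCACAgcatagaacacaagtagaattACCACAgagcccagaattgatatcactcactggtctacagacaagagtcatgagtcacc
*Ncr1* (chr7:4337465-4337764, plus strand): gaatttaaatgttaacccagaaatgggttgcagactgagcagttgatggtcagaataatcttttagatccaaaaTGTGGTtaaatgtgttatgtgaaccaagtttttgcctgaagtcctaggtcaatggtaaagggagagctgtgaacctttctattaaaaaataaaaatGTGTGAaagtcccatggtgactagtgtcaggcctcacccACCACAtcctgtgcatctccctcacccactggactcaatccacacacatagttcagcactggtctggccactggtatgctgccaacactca

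NAM-treated M/D-driven tumor 1 stood apart from the other M/D-driven tumors, and it was also the only one of experiment 2, the other 7 being of experiment 1. The summed normalized count of 7 B cell markers was 190870 in it against at most 1908 in the others, that of 7 precursor B cell markers was 222490 against 1131 to 1625, and that of 9 epithelial markers was 8368 against 274623 to 1042765, with each of the 9 at its lowest there. It was also the lowest for 7 of 10 T cell markers and for 10 of 15 cytotoxic granule and effector genes, and no B cell marker was at 0 in it. NAM-treated M/D-driven tumor 4 was the highest of the 8 for 8 of 10 T cell markers, for 9 of 15 cytotoxic granule and effector genes and for 4 of the 10 receptor genes, *Klrk1*, *Klrc1*, *Klrc2* and *Ncr1*. In the AT3 model, untreated tumor 3 was the highest for 8 of the 10 receptor genes and for 13 of the 15 cytotoxic granule and effector genes. The part of these markers in the results below was not tested, and results of the receptor genes that turn on a single tumor are given with and without it. In bulk RNA, fewer cells of a type and less RNA per cell cannot be told apart.

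Levels per length were compared in reads per kilobase of the longest GENCODE transcript per 1000000 reads (RPKM). The reads were counted by the authors over constitutive regions of each gene, and the lengths of those regions were not used. The order of different genes within a group is therefore approximate, and that of *Klrk1* also depends on its long annotated row. In untreated M/D-driven tumors the highest was the inhibitory receptor gene *Klrb1b*, at 4.53 ± 0.729 RPKM (SD, n = 4), and its 4 tumors did not overlap those of the next gene in order. *Klrd1* followed at 2.25 ± 1.08 RPKM (SD, n = 4), then *Klrk1* at 1.25 ± 0.776 RPKM and *Klrg1* at 1.24 ± 0.361 RPKM, and neighbors from *Klrd1* down to *Klri2* overlapped. The lowest was *Klrc2* at 0.049 ± 0.0308 RPKM (SD, n = 4), below every tumor of *Klri2*. *Ncr1* stood at 0.326 ± 0.359 RPKM in the same tumors. In untreated AT3 tumors, *Klrd1* came first at 3.81 ± 3.41 RPKM (SD, n = 3), *Klrb1b* second at 1.02 ± 0.534 RPKM and *Ncr1* last at 0.164 ± 0.0579 RPKM, but all neighbors in that order overlapped.

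NAM-treated M/D-driven tumors had higher levels of 3 of the 10 receptor genes, *Klrc2*, *Klrb1c* and *Klrd1*, and no gene was past the thresholds in the other direction. The thresholds were those of the study, namely p no greater than 0.05 before adjustment together with a change of 1.5-fold or more. Of all 21700 genes tested, 3.03% were higher by them, 3.19% lower and 6.22% either, and 6.71% met the condition on p alone. None of the 3 passed a Benjamini-Hochberg adjustment over all genes, where 1 gene (0.00461%) did. The log2 fold change was above 0 for 9 of the 10 genes, *Klrk1* only at 0.0012, with a median of 0.86, against 51.1% of all genes and a median of 0.01. The 10 genes varied together from tumor to tumor and some of their rows overlap, so they are not independent and this count is a description. With 1 tumor left out it was above 0 for 7 to 10 genes, with medians from 0.59 to 1.3. The normalized counts reported below are reads divided by a size factor for each tumor, and log2 values are taken after adding 1.

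*Klrc2*, the activating partner chain of CD94, was the gene whose groups separated. Its normalized count was 16.6, 7.61, 8.26 and 4.02 in untreated tumors 1 to 4 and 26.3, 21.9, 23 and 36.1 in NAM-treated tumors 1 to 4. Every NAM-treated tumor was above every untreated tumor, as was the case for 2.43% of all genes (4.43% separated in either direction), and the tumor of experiment 2 lay within the range of the other NAM-treated tumors. The log2 fold change was 1.58 (SE 0.53, p = 0.017, adjusted p = 0.73 by limma), a 2.98-fold difference, and the exact two-sided permutation p was 0.0286, the smallest that 4 against 4 tumors can give. With any 1 NAM-treated tumor left out the exact permutation p was 0.0571, and with any 1 untreated tumor left out 0.0286. Within experiment 1, without NAM-treated tumor 1, the log2 fold change was also 1.58 (SE 0.59, adjusted p = 0.81 by limma), and without NAM-treated tumor 4 it was 1.43 (SE 0.58, adjusted p = 0.72 by limma). These are low counts, with a median of 17 reads per tumor over all 14 tumors.

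*Klrb1c* is the gene of NKR-P1C. Untreated tumors 1 to 4 had normalized counts of 197, 76.1, 85.6 and 78.1, whereas NAM-treated tumors 1 to 4 had 1696, 132, 317 and 343. A single tumor carried most of the group mean of 622 ± 722 (SD, n = 4) against 109 ± 58.9 in untreated tumors, and the groups overlapped, since NAM-treated tumor 2 lay below untreated tumor 1. The log2 fold change was 1.97 (SE 0.74, p = 0.028, adjusted p = 0.73 by limma) and the exact permutation p was 0.0571. Without NAM-treated tumor 1 it was 1.27 (SE 0.50, adjusted p = 0.81 by limma), still past the thresholds.

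*Klrd1*, which encodes CD94, had normalized counts of 185, 83.7, 145 and 74.8 in untreated tumors 1 to 4 and of 406, 263, 161 and 265 in NAM-treated tumors 1 to 4. The groups overlapped by NAM-treated tumor 3, which lay between untreated tumors 1 and 3. The log2 fold change was 1.18 (SE 0.42, p = 0.022, adjusted p = 0.73 by limma), with an exact permutation p of 0.0571. It was 0.97 (SE 0.42, adjusted p = 0.81 by limma) without NAM-treated tumor 1, just outside the thresholds, and 1.17 without NAM-treated tumor 4, where *Klrc2*, *Klrb1c* (2.04) and *Klrd1* all passed. Without untreated tumor 2, or without untreated tumor 4, neither *Klrb1c* (1.84 and 1.85) nor *Klrd1* (1.04 and 0.98) passed and 1 of the 10 genes was higher, and without untreated tumor 3 *Klrb1c* (1.89) did not pass.

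**Figure D1:**
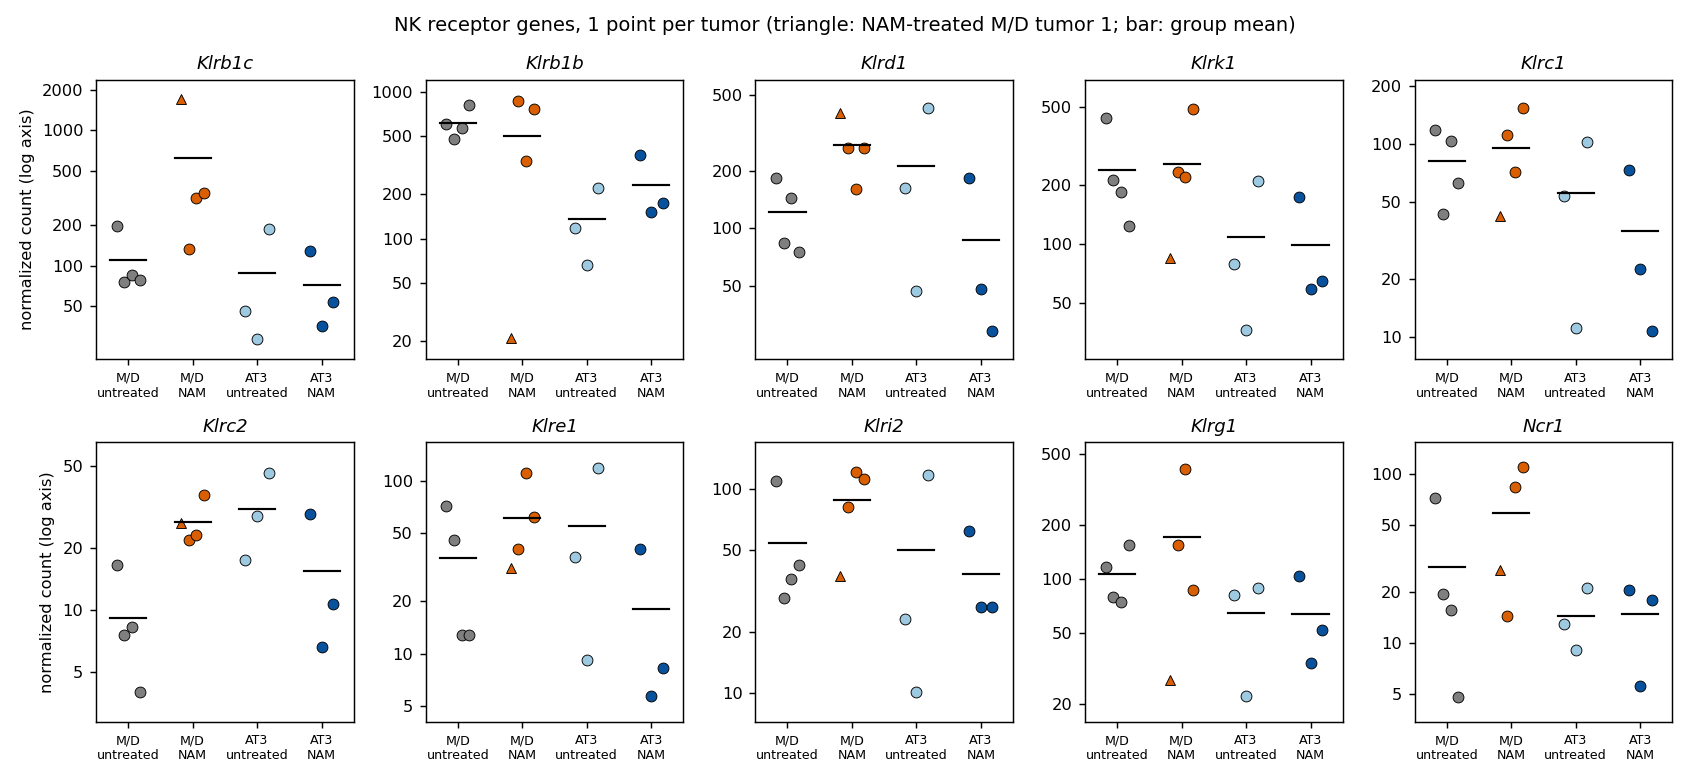
Normalized count (log axis) of each of the 10 receptor genes in every tumor of the 4 groups, with 1 point per tumor and a bar at the group mean; a triangle marks NAM-treated M/D-driven tumor 1. For *Klrc2* the 4 NAM-treated M/D-driven tumors, from 21.9 to 36.1, sit above the 4 untreated ones, from 4.02 to 16.6, while for *Klrb1c* the triangle at 1696 lies far above the other NAM-treated tumors.

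The remaining 7 receptor genes did not pass the thresholds in M/D-driven tumors, and their groups overlapped. *Ncr1* had normalized counts of 72.7, 19.6, 15.8 and 4.83 in untreated and 27.2, 14.6, 83.8 and 110 in NAM-treated tumors, a log2 difference of 1.2 with a 95% confidence interval from -0.90 to 3.31. For *Klre1* the values were 71.7, 45.6, 12.8 and 12.9 against 31.4, 40.2, 110 and 61.8 (log2 difference 0.96, interval -0.64 to 2.56), and for *Klri2*, its partner, 109, 29.3, 36 and 42.7 against 37.3, 81.6, 121 and 112 (0.75, interval -0.53 to 2.04). In each of these 3 genes the highest tumors were NAM-treated tumors 3 and 4 and untreated tumor 1. *Klrk1*, the gene of NKG2D, had nearly equal means of 239 ± 138 and 256 ± 169 normalized counts (SD, n = 4 each), and its log2 difference of 0.00 has an interval from -1.34 to 1.34. The inhibitory receptor genes *Klrc1* and *Klrg1* differed by 0.16 (interval -1.02 to 1.35) and 0.13 (interval -1.62 to 1.88) on the log2 scale.

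*Klrb1b* was the receptor gene with a negative difference, of -1.18 (SE 1.07, adjusted p = 0.81 by limma), and this rested on a single tumor. Its normalized count was 599, 478, 565 and 808 in untreated tumors and 21.2, 860, 340 and 764 in NAM-treated tumors 1 to 4. Without NAM-treated tumor 1 the log2 difference was 0.01 (SE 0.37). In experiment 1 alone, all 10 receptor genes had a log2 difference above 0, with a median of 1.04 against -0.00 for all genes, of which 49.8% were above 0. In experiment 1, 2 of the 10 genes were higher by the thresholds, as were 2.85% of all genes, and none passed the adjustment. With NAM-treated tumor 1 kept, 7 of the 10 were above 0 when untreated tumor 2 or 3 or NAM-treated tumor 2, 3 or 4 was left out. Without NAM-treated tumor 4 the difference was -0.39 for *Klrk1* and -0.12 for *Klrc1*.

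In AT3 tumors none of the 10 receptor genes passed the thresholds in either direction, by limma, edgeR or DESeq2, and none met the condition on p alone (24.3% of all genes did, and 0.00519% passed the adjustment). Over all 19281 genes tested, 12.2% were higher and 10.9% lower with NAM, and 22.6% had groups that did not overlap (11.7% higher and 11% lower), which was the case for 0 of the 10 receptor genes. The log2 difference was above 0 for 4 of the 10, and the median was -0.04 against -0.05 for all genes. Both moved with the processing, as 1 to 7 of the 10 were above 0 with a tumor left out (median -0.57 to 0.36) and 2 of the 10 by edgeR or DESeq2 (median -0.34 by each). With 3 against 3 tumors the exact permutation test cannot give a p under 0.1.

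The AT3 groups overlapped for each of the 10 genes. *Klrd1* had normalized counts of 162, 46.7 and 431 in untreated tumors 1 to 3 and of 185, 48 and 28.9 in NAM-treated tumors 1 to 3, a log2 difference of -1.21 with an interval from -3.15 to 0.73. For *Klre1* the counts were 36.2, 9.14 and 119 against 40.1, 5.64 and 8.26 (log2 difference -1.39, interval -3.61 to 0.84), and for *Klrc2* they were 17.4, 28.4 and 46.4 against 29.2, 6.59 and 10.7 (-1.09, interval -2.59 to 0.42). The untreated group held both extremes, since untreated tumor 3 was the highest for 8 of the 10 receptor genes and untreated tumor 2 the lowest for 5. *Klrb1b* had 119, 66 and 222 against 369, 151 and 174 (log2 difference 0.82, interval -0.31 to 1.95). The remaining genes lay between -0.58 (*Klrc1*) and 0.19 (*Klri2*).

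Single AT3 tumors decided which genes passed. Without untreated tumor 2, *Klrd1* (-2.03, adjusted p = 0.098 by limma) and *Klre1* (-2.29, adjusted p = 0.10 by limma) were lower with NAM. Leaving out NAM-treated tumor 1 made *Klrd1* (-1.97, adjusted p = 0.13 by limma) and *Klrc2* (-1.64, adjusted p = 0.12 by limma) lower, and leaving out untreated tumor 3 made *Klrb1b* higher (1.26, adjusted p = 0.37 by limma). Across genes in this model the NAM difference also followed transcript length (Spearman's rho 0.59 across 16429 genes, and genes are no replicates), while rho was -0.04 for the M/D model. Once each tumor was corrected for length and GC content, *Klrb1b* was higher by 1.21 on the log2 scale (SE 0.35, adjusted p = 0.15 by limma) and 7 of the 10 differences were above 0 in place of 4. Partner and marker genes are given below from the fit without this correction.

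The effect of NAM in M/D-driven tumors was compared with that in AT3 tumors by an interaction term over all 14 tumors. The difference of the effects was above 0 and past the thresholds for *Klrc2*, at 2.66 on the log2 scale (SE 0.85, adjusted p = 0.22 by limma), and for *Klrd1*, at 2.39 (SE 1.03, adjusted p = 0.31 by limma). Both encode chains of the activating CD94 and NKG2C receptor, but CD94 is equally a chain of the inhibitory receptor with NKG2A. The difference for *Klrc1*, the gene of NKG2A, was 0.74 (interval -1.62 to 3.11) and did not pass. Among all 22710 genes, 6.97% were past the thresholds in this direction, 7.90% were in the other, 14.9% met the condition on p alone, and 0 genes passed the adjustment by limma or by edgeR. *Klrc2* stayed past the thresholds without any single tumor, at 2.66 (SE 0.90) without NAM-treated M/D-driven tumor 1, whereas *Klrd1* did not pass when any of 8 tumors was left out, for example at 2.18 (SE 1.06, adjusted p = 0.31 by limma) without that tumor and 1.63 (SE 0.97) without untreated AT3 tumor 3. The differences for *Klre1* (2.35, interval -0.44 to 5.14) and *Klrb1c* (1.98, interval -0.51 to 4.46) did not pass.

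**Figure D2:**
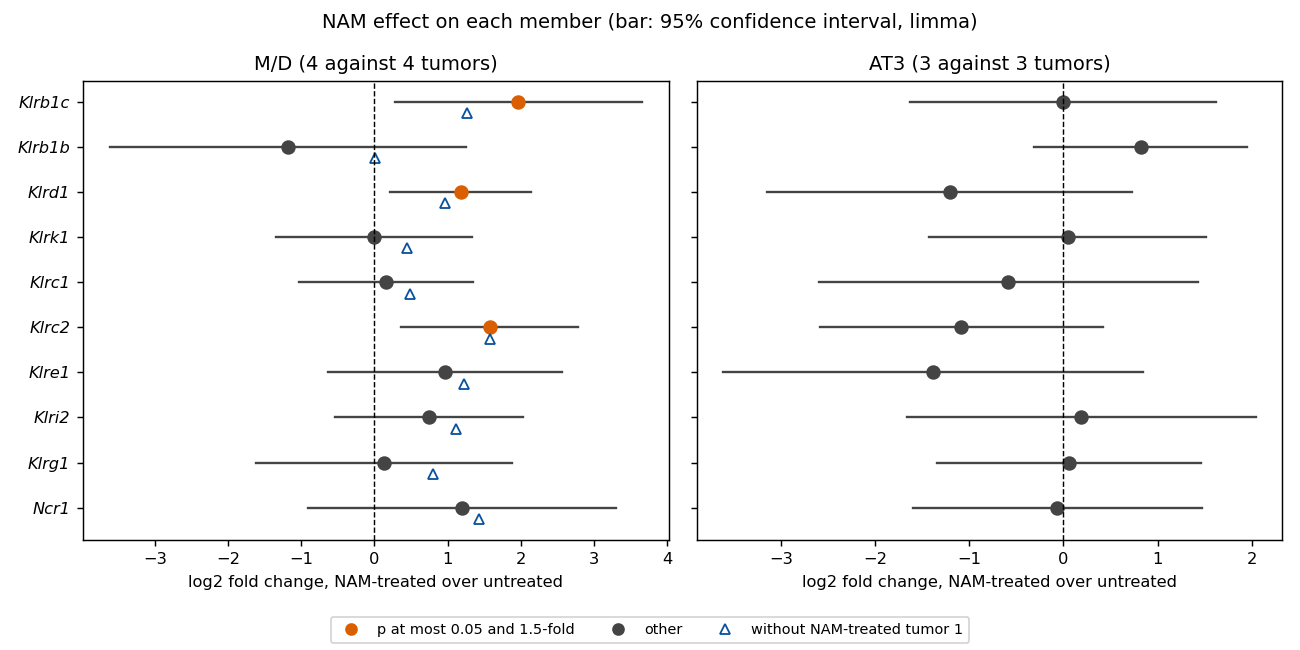
Log2 fold change of NAM-treated over untreated tumors for each receptor gene, with its 95% confidence interval by limma, in M/D-driven tumors on the left and AT3 tumors on the right; open triangles give the value without NAM-treated M/D-driven tumor 1. The intervals of *Klrb1c*, *Klrd1* and *Klrc2* lie above 0 on the left, whereas all 10 intervals on the right include 0.

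Untreated tumors of both models were compared after all 14 libraries were brought to 1 scale by median-of-ratios size factors, and model, experiment and site of growth cannot be told apart in this comparison. *Klrb1b* was higher in M/D-driven tumors. Its counts on that scale were 553, 449, 516 and 751 in untreated M/D-driven tumors 1 to 4 and 147, 78.6 and 276 in untreated AT3 tumors 1 to 3, without overlap, and the log2 difference was 1.91 (SE 0.42, adjusted p = 0.0058 by limma). *Klrc2* was lower, with 15.3, 7.14, 7.55 and 3.74 against 21.6, 33.9 and 57.5, also without overlap (log2 difference -2.06, SE 0.64, adjusted p = 0.025 by limma). These are 2 of 10 genes, while 30.1% of all 21713 genes were higher and 26.4% lower by the thresholds (56.5% either), 58.5% met the condition on p alone, 51.2% passed the adjustment and 53.8% had groups that did not overlap. The other 8 receptor genes differed by -0.78 (*Klrd1*) to 0.93 (*Klrk1*) on the log2 scale and did not pass. Scaling to the total reads of each tumor instead moved the median of all genes from 0.04 to 0.40 and the split of calls from 6529 higher and 5732 lower to 8005 and 4069, and removal of the length and GC trend gave a median of -0.34 and a split of 3972 and 6536. Both genes stayed past the thresholds under each of these, and *Klrk1* was also higher with the trend removed (1.54) or without untreated AT3 tumor 3 (1.58). Without untreated AT3 tumor 2, *Klrd1* was lower in M/D-driven tumors (-1.63, adjusted p = 0.045 by limma).

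Ratios between receptors that share a partner or a neighborhood were taken within each tumor, where scaling has no part, and are given as a description. Trends with transcript length do not cancel in them, and no share of gene pairs with separated groups was computed. The ratio of *Klrc2* to *Klrc1*, the activating over the inhibitory chain of CD94, was 0.142, 0.175, 0.0803 and 0.0641 in untreated M/D-driven tumors 1 to 4 and 0.620, 0.198, 0.321 and 0.236 in NAM-treated ones. Every NAM-treated tumor exceeded every untreated tumor, with or without tumor 1. *Klrc2* alone already separated these groups, so the ratio is no separate result. The closest values, 0.198 in NAM-treated tumor 2 and 0.175 in untreated tumor 2, rest on 18 and 7 reads of *Klrc2*. In AT3 tumors the same ratio was 0.324, 2.55 and 0.452 against 0.400, 0.292 and 1.00, with overlap. The ratio of *Klrd1* to *Klrc1* was 1.19 to 1.93 in untreated and 1.73 to 9.56 in NAM-treated M/D-driven tumors, and 3.03 to 4.20 in untreated and 2.13 to 2.69 in NAM-treated AT3 tumors, where the groups did not overlap. The longest transcripts of these genes have 919 and 1984 bases, and the NAM difference followed transcript length in AT3 tumors. The part of length in this ratio was not tested. *Klrb1c* and *Klrb1b*, neighbors with opposite action on the cell, had a ratio of 79.9 in NAM-treated M/D-driven tumor 1 and of 0.0966 to 0.932 in the other 13 tumors. In that tumor the ratio of *Klrb1c* to *Ncr1* was 62.4 against 2.71 to 16.2 elsewhere, and *Klrb1c* took 70.7% of the summed counts of the 10 genes.

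**Figure D3:**
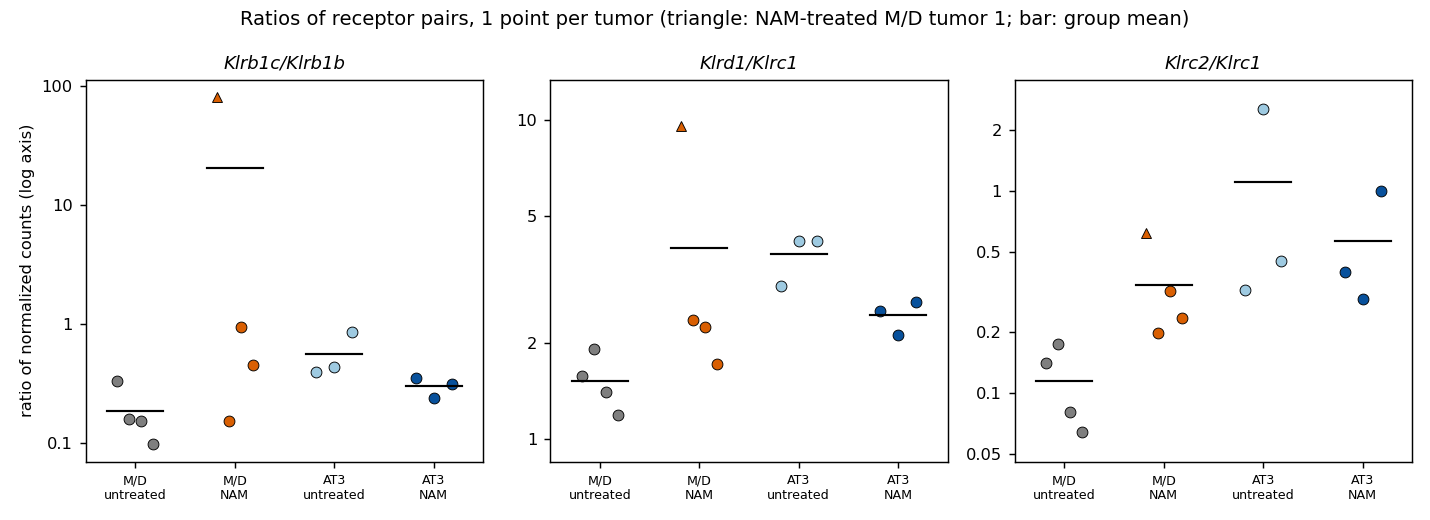
Ratio of normalized counts (log axis) for 3 pairs of receptor genes, with 1 point per tumor, a bar at the group mean and a triangle for NAM-treated M/D-driven tumor 1. The ratio of *Klrc2* to *Klrc1* is 0.198 or more in NAM-treated and 0.175 or less in untreated M/D-driven tumors, and the ratio of *Klrb1c* to *Klrb1b* is 79.9 in the tumor marked by a triangle.

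The receptor genes varied together from tumor to tumor once the mean of each of the 4 groups was taken off, and these correlations are descriptions over genes of the same libraries. Pearson's r was above 0 for 43 of 45 pairs over 14 tumors, with a median of 0.60. In AT3 tumors all 45 pairs were above 0 with a median of 0.87, whereas in M/D-driven tumors 34 were, with a median of 0.40. The closest pair was *Klrk1* and *Klri2* (r = 0.88), whose annotated spans overlap, followed by *Klrk1* and *Klrc1* (0.85), which overlap as well. *Klre1* and *Klri2*, whose products pair and whose rows do not overlap, had an r of 0.83. The lowest was *Klrb1c* with *Klrb1b*, at -0.41 over all tumors and -0.86 in M/D-driven tumors, against 0.54 over the 13 tumors other than NAM-treated M/D-driven tumor 1. *Klrd1* and *Klrc1*, which encode the chains of the inhibitory receptor, had an r of 0.26 in M/D-driven tumors, and of 0.90 without that tumor. Other pairs of M/D-driven tumors went the opposite way without it, such as *Klrb1b* with *Klrg1* (0.68 to -0.49), *Klrk1* with *Klrg1* (0.33 to -0.47) and *Klrb1b* with *Klrk1* (0.68 to 0.06), and 33 pairs were above 0 in place of 34.

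Each receptor gene was then compared with *Ncr1*, as a gene of NK and innate lymphoid cells, and with the mean of *Cd3d*, *Cd3e* and *Cd3g*, which encode chains of the T cell receptor complex, in 19 relations per model. Here the group means were not taken off, so these r hold any difference between NAM-treated and untreated tumors, and the permutations did not keep the groups apart. In M/D-driven tumors (8 tumors), *Klrk1* followed the *Cd3* genes (r = 0.96, rho = 0.86, exact permutation p = 0.000521 and 0.0107, adjusted p = 0.0099 and 0.10), and so did *Klrc1* (r = 0.85, rho = 0.95, exact permutation p = 0.00503 and 0.00114, adjusted p = 0.048 and 0.022). Without the 2 tumors farthest from the median of the *Cd3* genes, r was 0.90 for *Klrk1* and 0.64 for *Klrc1*, the latter with an exact permutation p of 0.153. Closest to *Ncr1* were *Klre1* (r = 0.84, rho = 0.76, exact permutation p = 0.00952 and 0.0368, adjusted p = 0.060 and 0.22) and *Klrc2* (r = 0.78, rho = 0.74, exact permutation p = 0.0268 and 0.0458, adjusted p = 0.13 and 0.22), neither past the adjustment, and r without the 2 farthest tumors was 0.80 and 0.42. With the group means taken off, r was 0.96 for *Klrk1* and 0.87 for *Klrc1* with the *Cd3* genes, and 0.80 for *Klre1*, 0.85 for *Klrc2* and 0.29 for *Klrb1c* with *Ncr1*. *Klrb1c* had an r of -0.27 with the *Cd3* genes over 8 tumors and of 0.67 without NAM-treated tumor 1. With *Ncr1* it had an r of 0.49, and of 0.90 without that tumor.

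In AT3 tumors (6 tumors) all 19 relations were above 0, and none passed the adjustment. The highest was again *Klrk1* with the *Cd3* genes (r = 0.97, rho = 0.94, exact permutation p = 0.00694 and 0.0167, adjusted p = 0.070 and 0.079). Without the 2 tumors farthest from the median of the *Cd3* genes, untreated tumor 3 and NAM-treated tumor 1, the median r of the 10 genes with the *Cd3* genes fell from 0.85 to 0.58 and *Klrc2* turned to -0.63. The relations in this model rest on those tumors to that extent.

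**Figure D4:**
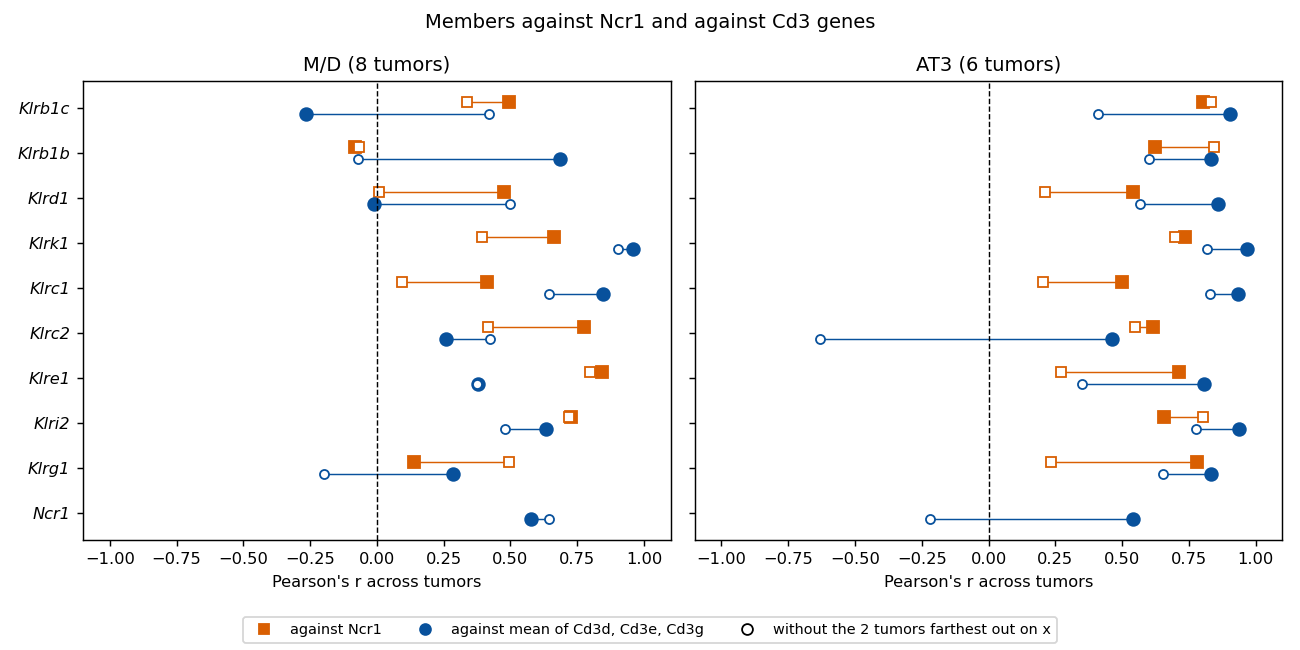
Pearson's r of each receptor gene with *Ncr1* (squares) and with the mean of *Cd3d*, *Cd3e* and *Cd3g* (circles) across 8 M/D-driven tumors on the left and 6 AT3 tumors on the right; open symbols give r without the 2 tumors farthest out on the x axis of that relation. *Klrk1* lies at 0.96 and 0.97 with the *Cd3* genes and stays at 0.90 and 0.82 without those tumors.

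Among other genes, the 10 closest to the 10 receptor genes by mean r over 14 tumors, out of 15404, were *Ms4a4b* (0.71), *Slamf8* (0.70), *Cd3d* (0.70), *Klra4* (0.69), *Sh2d1a* (0.69), *Trat1* (0.68), *Xcl1* (0.67), *Rnase6* (0.66), *Cxcl11* (0.66) and *Ccl12* (0.66). *Klra4* encodes a further receptor of the NK gene complex, and *Cd3d* and *Trat1* are on the list of T cell markers.

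Of the other receptors of the NK gene complex and activating NK receptors, 18 of 21 rows were tested in M/D-driven tumors, where 3 were higher and 1 was lower with NAM, and the median log2 difference was 0.42 (4 higher and 1 lower by edgeR, 6 and 1 by DESeq2). Of all genes, 3.03% were higher and 3.19% lower by limma, with a median of 0.01. *Klra9* and *Klra1*, genes of the Ly49 family that binds class I molecules, separated the groups, with NAM-treated tumors higher, as was the case for 2.43% of all genes. *Klra9* had normalized counts of 10.4, 7.61, 9.76 and 3.22 in untreated and 13.6, 28, 57.1 and 29.7 in NAM-treated tumors (log2 fold change 1.85, SE 0.60, adjusted p = 0.73 by limma), and *Klra1* had 7.27, 1.09, 5.26 and 4.02 against 19.5, 7.31, 25.8 and 11.2 (1.67, SE 0.67, adjusted p = 0.73 by limma). The Ly49 genes are similar in sequence, and their counts are low. *Klrb1* was at 0 in all 4 untreated tumors and at 56.9, 0, 4.6 and 9.63 in NAM-treated tumors. *Klrg2* was lower, with 1332, 226, 2287 and 3477 against 15.3, 561, 48.8 and 37.7 (log2 fold change -4.26, SE 1.2, adjusted p = 0.73 by limma), and NAM-treated tumor 2 lay above untreated tumor 2. Whether *Klrg2* is a receptor of NK cells was not examined. The summed counts of the 9 epithelial markers were 333947, 438964, 630310 and 1042765 against 8368, 657310, 274623 and 373503 in the same tumors. The part of epithelial cells in the difference of *Klrg2* was not tested. In AT3 tumors none of 17 rows tested passed by limma, edgeR or DESeq2, where 23.1% of all genes passed in either direction by limma.

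The adaptors *Hcst* and *Tyrobp*, through which NKG2D and other activating receptors signal, did not pass in either model, with log2 differences of 0.42 and -0.05 in M/D-driven and of -0.46 and -0.72 in AT3 tumors. Of 16 adaptor and proximal signaling genes tested, none passed in M/D-driven tumors (0 at an unadjusted p of at most 0.05 by limma, 0 calls by edgeR and 1 by DESeq2). In AT3 tumors 2 were higher, the kinase gene *Syk* (1.17, SE 0.29, adjusted p = 0.17 by limma) and the phosphatase gene *Inpp5d* (0.99, SE 0.31, adjusted p = 0.17 by limma), both without overlap of the groups. Of all genes, 12.2% were higher and 22.6% had groups without overlap, so 2 of 16 is near the background.

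Among 9 rows of receptor ligands, 1 was higher and 1 lower in M/D-driven tumors by limma and by DESeq2, whereas 2 were higher and 0 lower by edgeR. By limma, 3.03% of all genes were higher and 3.19% lower. In AT3 tumors 2 of 7 rows tested were higher and 1 was lower, where 12.2% of all genes were higher and 10.9% lower. The NKG2D ligand gene *H60c* was lower, with normalized counts of 122, 152, 1796 and 2684 in untreated and 0, 374, 33.1 and 6.42 in NAM-treated tumors (log2 fold change -4.97, SE 1.84, adjusted p = 0.73 by limma). *Cdh2*, the gene of a cadherin bound by KLRG1, was higher (1.66, SE 0.72, adjusted p = 0.73 by limma). Its normalized counts were 402, 397, 240 and 221 in untreated and 192, 1335, 1425 and 2314 in NAM-treated tumors. The groups overlapped, since NAM-treated tumor 1 was the lowest of all. The cadherin gene *Cdh1* went the other way in M/D-driven tumors without passing the thresholds. Its normalized counts were 40386, 43070, 37883 and 35044 in untreated and 773, 20533, 19959 and 31298 in NAM-treated tumors. Every NAM-treated tumor was below every untreated tumor, as was the case for 2% of all genes. In AT3 tumors, *Clec2d*, which encodes the ligand of NKR-P1B, had normalized counts of 16611, 9029 and 28104 in untreated and 11440, 4695 and 3465 in NAM-treated tumors (log2 fold change -1.50, SE 0.50, adjusted p = 0.17 by limma). Its effect differed from that in M/D-driven tumors, where it was 0.53, by 2.03 on the log2 scale (SE 0.60, adjusted p = 0.20 by limma). *Ulbp1*, the gene of MULT1, was higher in AT3 tumors (2.26, SE 0.99, adjusted p = 0.20 by limma), as was the cadherin gene *Cdh1* (0.90, SE 0.28, adjusted p = 0.17 by limma). The normalized counts of *Ulbp1* were only 2.9, 0 and 13 in untreated and 15.8, 21.6 and 14.9 in NAM-treated AT3 tumors. At such levels the size of the change depends on the value added before taking logs. *H2-T23*, the gene of Qa-1, did not pass in either model (0.04 and -0.51).

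Genes of the NK lineage and its cytokine receptors, 16 in all, did not pass in M/D-driven tumors (0 at an unadjusted p of at most 0.05 by limma, with 1 higher by edgeR and 1 higher and 1 lower by DESeq2), and neither did 15 cytotoxic granule and effector genes (0 by limma and edgeR, 1 higher by DESeq2). In AT3 tumors 4 of 15 lineage and cytokine receptor genes were higher, *Runx3* (1.39), *Il12rb2* (1.14), *Ets1* (0.86) and *Itga2* (0.84), and the cytokine gene *Il15* was lower (-1.16), with adjusted p of 0.17 to 0.20 by limma, where 12.2% of all genes were higher and 10.9% lower. Of the granule genes, *Gzmc* was lower (-0.87, SE 0.33, adjusted p = 0.18 by limma) without overlap of the groups, as was the case for 22.6% of all genes. None of these AT3 calls was checked with the length trend removed.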

How the data were processed

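Normalized counts of 56414 genes in 14 tumors were used, from 1 deposited table in which M/D-driven and AT3 tumors were normalized separately. Per the labels and the study's methods, the authors aligned reads to mm10 with STAR (2.4.0), counted reads over constitutive regions of genes in Mouse FAST DB and divided the counts by DESeq2 size factors, so the deposited values are a normalized signal per gene. Each tumor's values were whole multiples of a single step (100% of values within 0.001), from which whole reads and depth were recovered. Normalized counts are therefore not raw counts, and the count tests (edgeR 4.0.16, DESeq2 1.42.0) were run on the recovered reads as alternatives. No deposited column was left unmapped.

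The test was limma (3.58.1, R 4.3.3) with a variance trend on log2(normalized count + 1), over genes with a mean of at least 10 in a group. This scale understates the change of low genes. NAM was tested within each model, the difference of effects by an interaction over 14 tumors, and the models after rescaling the recovered reads with 1 set of median-of-ratios size factors. A call required p no greater than 0.05 and a 1.5-fold change, and Benjamini-Hochberg adjusted p were taken over all genes tested. Single genes also had exact two-sided permutation tests (Python 3.11.15). Each replicate is a separate tumor. All 10 receptor genes are reported. From the lists of partner and marker genes, those past the thresholds were named together with *Hcst*, *Tyrobp*, *H2-T23* and *Clec2d*. The 10 genes and the lists were chosen with earlier results of these data known. Alternatives were pseudocounts of 0.5 and 5, no filter and a mean of at least 50, other scalings, a replicate block, removal of a trend with length and GC content, 1 fit of all tumors, both count tests and each tumor left out. For the partner and marker genes, the only alternatives given are counts of calls by both count tests. Exact tests with a tumor left out and correlations with group means removed were chosen after seeing the data. Scripts were tested on simulated data.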

Additional observations from a re-analysis of the deposited data

Results flagged for a closer look

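In groups of 4 tumors, the highest and the lowest tumor were each compared with the others by the gap over the range of the group. This was done for 30 genes in 59 groups. For normally distributed values, chance alone gives about 1 value apart in 20 groups. The counts were not log-transformed here, and the chance rate for such counts was not determined. In total 10 values lay apart. Among the receptor genes these were *Klrb1c* in untreated M/D-driven tumor 1 (197 normalized counts) and in NAM-treated M/D-driven tumor 1 (1696), and *Klri2* in untreated M/D-driven tumor 1 (109). NAM-treated M/D-driven tumor 1 also lay apart for *Klrb1* (56.9), *Syk* (16321), *Inpp5d* (28612), *Ulbp1* (489) and *Ets1* (5878), and NAM-treated M/D-driven tumor 2 for *Klrg2* (561) and *H60c* (374).

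The effect of NAM differed between M/D-driven and AT3 tumors for 8 of 30 named genes by the interaction term (p no greater than 0.05 before adjustment), and none passed the adjustment by limma. Over all genes 14.9% met this condition, and most of the 30 were named because they passed within 1 model. The difference, M/D-driven minus AT3 on the log2 scale, was 2.66 for *Klrc2*, 2.39 for *Klrd1*, 2.39 for *Klra1*, 2.17 for *Klra9* and 2.03 for *Clec2d*. It was -4.17 for *Klrg2*, -2.86 for *Cdh1* and -2.43 for *Runx3*.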

How the results depend on the processing

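Of 687 values of single receptor genes under alternatives, 583 kept direction and side of the thresholds, 19 lost the call, 14 gained it and 71 changed sign, none of them past the thresholds before or after. The correlations with group means removed were also chosen after seeing the data. With the length and GC trend removed, 1 receptor gene was higher in AT3 tumors (0 without this step, and also 1 with the replicate block added), 1 in the difference of effects (2 without it) and 2 in untreated M/D-driven against AT3 tumors (1 without it). Leaving out 1 tumor at a time gave 1 to 3 higher genes in M/D-driven tumors, 0 to 1 higher and 0 to 2 lower in AT3 tumors, 1 to 3 in the difference of effects, and 1 to 2 higher and 1 to 2 lower between models. The median r without the 2 farthest AT3 tumors was 0.58 in place of 0.85 with the *Cd3* genes and 0.55 in place of 0.65 with *Ncr1*. The cause was not tested.

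Samples with the same replicate number did not deviate together (mean correlation -0.18 in M/D-driven and 0.07 in AT3 tumors), so the numbers do not pair the tumors. With the replicate block, 2 receptor genes were higher in M/D-driven tumors, *Klrc2* having an adjusted p of 0.86 by limma, 0 in AT3 tumors, 2 in the difference of effects, and 1 higher and 0 lower between models. Over all genes, 658 were higher and 692 lower in M/D-driven tumors by limma, 992 and 645 by edgeR and 1325 and 792 by DESeq2. Adjusted calls over all genes were 1, 0 and 176 by the same tools in M/D-driven tumors, and 1, 0 and 2059 in AT3 tumors, where the replicate block gave 1296. *Klrc2* was not tested at a group mean of at least 50, and *Klrd1* did not pass in 1 fit of all tumors (adjusted p = 0.56 by limma). Exact tests with a tumor left out, chosen after seeing the data, gave 0 to 1 genes at a p no greater than 0.05 in M/D-driven tumors (*Klrc2* without any untreated tumor, *Klrb1c* without NAM-treated tumor 2) and 0 in AT3 tumors, where the smallest p possible is 0.1.

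With 1 tumor left out, log2 differences in M/D-driven tumors ran from -0.39 to 0.44 for *Klrk1*, -0.12 to 0.49 for *Klrc1*, -0.49 to 0.80 for *Klrg1* and -1.75 to 0.012 for *Klrb1b*. In AT3 tumors they ran from -0.56 to 1.14 for *Klri2*, -0.55 to 0.69 for *Klrk1*, -0.57 to 0.42 for *Klrg1*, -0.57 to 0.77 for *Klrb1c*, -1.46 to 0.085 for *Klrc1* and -0.38 to 0.47 for *Ncr1*. Those of the difference of effects ran from -0.69 to 0.55 for *Klrk1*, -0.55 to 0.74 for *Klrg1* and -0.39 to 1.32 for *Klri2*. Those between models ran from -0.32 to 1.05 for *Klrb1c*, -0.56 to 1.18 for *Klri2*, -0.59 to 0.62 for *Ncr1*, -0.38 to 1.2 for *Klrc1*, -0.16 to 0.85 for *Klrg1* and -1.65 to 0.18 for *Klre1*. The log2 values that changed sign with TMM scaling were -0.013 for *Klrk1* in M/D-driven tumors and 0.031 for *Klrb1c* in AT3 tumors. The log2 values that changed sign with the length and GC trend removed were -0.035 for *Klrk1* in M/D-driven tumors and 0.18 for *Klrb1c*, 0.088 for *Klrc1* and 0.55 for *Ncr1* in AT3 tumors, -0.19 for *Klrg1* in the difference of effects and 0.29 for *Klrd1* between models (also with the replicate block where it was added). The log2 values that changed sign by edgeR were -0.12 for *Klrk1*, -0.40 for *Klri2*, -0.0062 for *Klrg1* and 0.041 for *Ncr1* in AT3 tumors, 0.20 for *Klrk1* in the difference of effects and -0.026 for *Klrb1c* and -0.24 for *Klri2* between models. The log2 values that changed sign by DESeq2 were -0.13 for *Klrk1*, -0.41 for *Klri2*, -0.024 for *Klrg1* and 0.023 for *Ncr1* in AT3 tumors.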

Other observations

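*Klrb1f* and *Clec2i*, a receptor gene of the NK gene complex and the gene of its ligand, were picked after their values were seen. In NAM-treated M/D-driven tumor 1 they had 407 and 2760 normalized counts, against 12.9 to 74.6 and 99.8 to 315 in the other 7 M/D-driven tumors, and neither passed the thresholds in M/D-driven tumors (limma). Of 10 T cell marker genes, none passed in M/D-driven tumors by limma or edgeR (0 at an unadjusted p of at most 0.05, 1 higher by DESeq2), and none in AT3 tumors by limma, edgeR or DESeq2 (0 at an unadjusted p of at most 0.05). In AT3 tumors, 4 of 7 macrophage markers and 4 of 6 endothelial markers were higher and 1 endothelial marker was lower with NAM (limma), where 12.2% of all genes were higher and 10.9% lower. The other macrophage markers, *Cd68*, *C1qa* and *C1qb*, did not pass and had log2 differences below 0. *C1qa* had 18653, 10422 and 20462 normalized counts in untreated and 18809, 12039 and 9978 in NAM-treated AT3 tumors. The NAM difference followed transcript length in this model, and the part of length in these calls was not tested.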
